A study of Mus musculus with 2 samples.

Results

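The cells described here are hepatic stellate cells caught with the transcripts of cell division, 181 of 19955 barcodes in 2 single-cell libraries. A barcode counted as a stellate cell where mitochondrial unique molecular identifiers (UMIs, each marking 1 captured mRNA) made up at most 5% of its total, where it held 2000 to 7000 genes and no more than 50000 UMIs, and where Lrat, Ecm1, Hgf and Reln together gave at least 15 of every 10000 UMIs. A stellate cell was a member where at least 4 of Top2a, Cenpf, Prc1, Tpx2, Diaph3 and Mki67 were detected with at least 8 UMIs in all. The rule found 166 members among 8092 stellate cells of the p16-LRTD library and 15 among 6837 of the p16-Alb-LRTD library. Members were chosen on these measured values, so every contrast of members with the other 7926 and 6822 stellate cells is a description with no test.

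The study asked what killing p16-high hepatocytes does to the fibrotic liver and its stellate cells. Both libraries came from livers of male C57BL/6 mice given CCl4 for 4 weeks with tamoxifen and diphtheria toxin, and stellate cells were released by pronase and collagenase and collected on a Nycodenz gradient. p16-LRTD mice carried p16-CreERT2 with R26-CAG-LSL-RSR-tdTomato-2A-DTR, a cassette for a red fluorescent protein and the diphtheria toxin receptor that needs both Cre and Dre. p16-Alb-LRTD mice, heterozygous per the study, carried in addition Alb-DreERT2, whose Dre is driven by the albumin promoter, so that the cassette opens in hepatocytes with p16 promoter activity. The study notes that the receptor may leak past the stop cassette. The age of the mice and the number of animals behind each library are not given in the sources used here. With 1 library per genotype there is no replicate check: intervals are exact 95% intervals for counting error, and genotype, animal and library preparation cannot be told apart.

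A dividing cell first copies its DNA in S phase, when E2F factors drive genes for replication origins, nucleotide supply and DNA polymerases. It then condenses and separates its chromosomes in mitosis, whose genes are switched on late by MuvB complexes together with B-MYB and FOXM1, through CHR and CCAAT letters close to the gene start. Quiescent stellate cells store vitamin A, and in injured liver they divide, contract and lay down collagen.

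Promoter letters of 3 mitotic genes and 1 replication gene are shown because the rule selects on mitotic genes, and the replication genes described below were no part of it. All windows are the 250 bases before the RefSeq gene start on GRCm38.p6, given 5′ to 3′ on the gene's strand. Capitals mark CCAAT, the CHR letters TTTGAA or TTCGAA, and the E2F letters TTTCCCGC, TTTCGCGC, TTTGCCGC or TTTGGCGC, on either strand.
Top2a, chr11:99024190-99024439, minus strand: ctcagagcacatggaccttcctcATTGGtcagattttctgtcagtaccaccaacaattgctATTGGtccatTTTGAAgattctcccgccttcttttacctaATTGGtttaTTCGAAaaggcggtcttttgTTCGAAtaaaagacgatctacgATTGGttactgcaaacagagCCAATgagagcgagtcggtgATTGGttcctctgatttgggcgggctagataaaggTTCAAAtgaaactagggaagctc
Mki67, chr7:135716380-135716629, minus strand: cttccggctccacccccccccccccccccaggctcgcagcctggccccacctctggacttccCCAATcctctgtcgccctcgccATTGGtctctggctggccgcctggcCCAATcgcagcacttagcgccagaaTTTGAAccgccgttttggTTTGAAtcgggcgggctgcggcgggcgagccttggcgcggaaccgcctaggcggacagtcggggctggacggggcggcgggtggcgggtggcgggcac
Ube2c, chr2:164769679-164769928, plus strand: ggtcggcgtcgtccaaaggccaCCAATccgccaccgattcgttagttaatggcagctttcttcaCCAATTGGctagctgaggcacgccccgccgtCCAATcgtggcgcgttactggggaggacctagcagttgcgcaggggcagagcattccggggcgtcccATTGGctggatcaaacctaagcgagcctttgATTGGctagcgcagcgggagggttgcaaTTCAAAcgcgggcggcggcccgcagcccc
Mcm5, chr8:75109259-75109508, plus strand: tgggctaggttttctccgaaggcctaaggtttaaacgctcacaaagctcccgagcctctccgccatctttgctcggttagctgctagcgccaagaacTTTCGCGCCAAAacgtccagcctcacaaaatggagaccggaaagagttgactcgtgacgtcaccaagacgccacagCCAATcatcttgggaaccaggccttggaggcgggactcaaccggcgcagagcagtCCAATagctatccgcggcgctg
The Top2a window held 6 CCAAT and 4 CHR matches, that of Mki67 3 and 2, and that of Ube2c 6 and 1, a pair of CCAAT matches there overlapping. Mcm5 had no CHR match and 2 overlapping E2F matches, of which the second lies on the other strand.

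In windows of 300 bases, from 250 before to 50 after the start, the same letters were counted over whole lists. Of 67 RefSeq promoters for 61 of 69 kinetochore, spindle and cytokinesis genes, 67.16% held CCAAT, 65.67% a CHR, 50.75% both and 7.463% E2F letters. Of 39 promoters for 34 of 43 replication fork genes, 56.41% held CCAAT, 17.95% a CHR and 35.9% E2F letters. Over all 32851 mouse promoters the shares were 37.41% for CCAAT, 19.23% for CHR, 7.525% for both and 2.265% for E2F. The rule genes, matched for 5 of 6, had CCAAT in 6 and CHR in 5 of 6 promoters and E2F letters in 0. A match of letters is no evidence that a factor binds there.

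Most stellate cells held no transcript of the rule genes, and members held many. None of the 6 rule genes was detected in 6979 of the p16-LRTD and 6245 of the p16-Alb-LRTD stellate cells, and 732 and 485 cells held a single UMI. Members carried a median of 64 UMIs of the 6 genes in p16-LRTD and 52 in p16-Alb-LRTD, with maxima of 288 and 303, and all 6 genes were seen in 128 and 13 members. Near the limit, p16-LRTD had 7 members at 8 or 9 UMIs, while 10 stellate cells held 6 or 7 UMIs and 8 held 8 or more from fewer than 4 genes. In p16-Alb-LRTD no stellate cell held 6 to 9 UMIs and 2 held 8 or more from fewer than 4 genes.

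**Figure D1:**
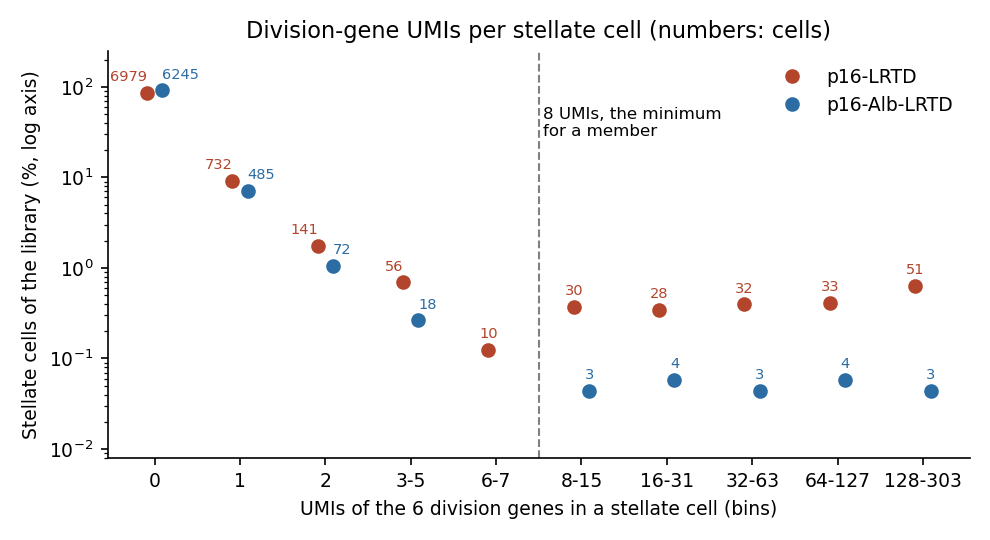
Share of stellate cells (%, log axis) by the summed UMIs of the 6 division genes (bins), with p16-LRTD in red and p16-Alb-LRTD in blue and the number of cells at each point. In p16-LRTD, 10 cells held 6 to 7 UMIs and 10 held 8 to 9 UMIs. Its counts thus showed no dip at the dashed line at 8 UMIs, and its rise past that line comes with wider bins. In p16-Alb-LRTD no cell held 6 to 7 or 8 to 9 UMIs.

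Members made up 2.05% (95% Clopper-Pearson interval 1.75 to 2.38) of p16-LRTD stellate cells and 0.219% (0.123 to 0.362) of p16-Alb-LRTD stellate cells, 9.35-fold (5.51 to 17.1) fewer in the library from mice whose p16-high hepatocytes were the target. The fold lay between 8.72 and 10.6 under the other filters and rules tried. Among the kept barcodes that missed the stellate limit, 19 of 912 and 6 of 579 met the same division rule, a fold of 2.01 (0.772 to 6.15). The upper limits removed many cells with division transcripts. Of the barcodes that passed the stellate limit but exceeded 7000 genes or 50000 UMIs, 99 of 347 in p16-LRTD and 10 of 238 in p16-Alb-LRTD met the rule, so that 37.4% (31.5 to 43.5) of 265 and 40% (21.1 to 61.3) of 25 such barcodes were lost. Their median depths were 47353 and 51013 UMIs, and whether they were large cells or pairs of cells was not tested.

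Members held more UMIs than other stellate cells. The UMIs of a p16-LRTD member ran from 5152 over a median of 28132.5 to 43043, against a median of 17046.5 in other stellate cells, and those of a p16-Alb-LRTD member from 10859 over 29920 to 49243, against 18314.5. Median genes per member were 6240.5 and 6450, just below the limit of 7000. Mitochondrial shares were close, with medians of 2.44% and 2.49% in members against 2.48% and 2.15% in others. The libraries shared 95 barcode sequences, of which 1 belonged to a p16-LRTD member and 0 to a p16-Alb-LRTD member.

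The stellate genes of the rule fix their own detection and check nothing, with Lrat, the enzyme that esterifies retinol for storage, seen in 165 of 166 and 15 of 15 members. Colec11, a collectin of stellate cells that the rule did not use, ran from 1.65 over a median of 13.6 to 50.8 UMIs per 10000 in p16-LRTD members and from 4.43 over 18.6 to 41.9 in p16-Alb-LRTD members, and was thus found in every member. Its medians in other stellate cells were higher, at 34.4 and 25.2, and a part from free RNA was not tested. Dcn, a proteoglycan of mesenchymal cells, ran from 27.7 to 214 and from 60.7 to 159. The summed share of the rule's stellate genes, which the rule itself set at 15 or more, had a median of 49.6 per 10000 UMIs in p16-LRTD members (15.3 to 99.5) and 36.8 in p16-Alb-LRTD members (21 to 89.6), below the 85.8 and 96.2 of other stellate cells. In p16-LRTD, 4 of 166 members held 15 or more UMIs per 10000 of Kupffer and macrophage genes, up to 169, and 1 held 48.4 of hepatocyte genes, while 0 of 15 p16-Alb-LRTD members reached 15 for any other cell type. Further, 32 of 166 and 4 of 15 members carried at least 5 UMIs of endothelial, Kupffer or lymphocyte genes, 19.3% and 26.7% against 8.24% and 5.95% of the shallower other cells. Summed Kupffer and macrophage genes, all 10 of them detected, reached 274 CPM (the UMIs of a gene or list per 1000000 UMIs of the group) in p16-LRTD members against 115 in the others, with 43.2% of it in 1 barcode, and 11.5 against 68.5 CPM in p16-Alb-LRTD, with 5 of 10 genes at 0. Summed endothelial genes were at 98.0 against 275 CPM and 101 against 303 CPM, lower in members of both libraries.

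Below, levels are CPM of summed UMIs, values are given as p16-LRTD first and p16-Alb-LRTD second, and each ratio is a log2 of members over other stellate cells. A gene was called higher or lower where it differed at least 2-fold with a counting interval that left out no change, among genes of at least 10 CPM on average over both groups. In p16-LRTD members 754 of 9044 genes were higher, a background of 8.34%, and 355 were lower, 3.93%. In p16-Alb-LRTD members 1113 of 8909 were higher, 12.5%, and 604 were lower, 6.78%, although those 15 cells held 435308 UMIs in all. The libraries shared 589 higher genes, 78.1% and 52.9% of each list, and 168 lower genes, 47.3% and 27.8%. That minimum admits a gene that is silent in other cells only where members are high, which fixes its call, so division lists are described below over all their genes with a UMI and counted among the genes that also reached 10 CPM in the other stellate cells. Of those, 383 of 8538 were higher in p16-LRTD, a background of 4.49%, and 671 of 8268 in p16-Alb-LRTD, 8.12%. The rule genes ranged from 373 to 755 CPM in p16-LRTD members and from 342 to 740 CPM in p16-Alb-LRTD members, and from 0.160 to 3.00 CPM in other stellate cells.

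Members of both libraries carried the machinery that copies DNA, which the rule did not use. The 43 origin licensing and replication fork genes had medians of 2.78 in p16-LRTD and 3.73 in p16-Alb-LRTD, and all 43 lay above 0 in each library. Of those at 10 CPM in other cells, 11 of 13 and 11 of 12 were higher, with medians of 1.63 and 2.37, while 22 and 27 had passed the minimum on the average through members alone. Mcm5, a subunit of the helicase that opens the fork, stood at 47.1 against 2.0 CPM and 75.8 against 1.67 CPM. Pcna, the clamp that holds polymerases on DNA, stood at 134 against 26.6 CPM and 315 against 30.2 CPM. In single members Pcna ran from 0 over a median of 0.467 to 6.6 UMIs per 10000 in p16-LRTD and from 0 over 2.76 to 7.34 in p16-Alb-LRTD, and the median of other stellate cells was 0. The 17 nucleotide synthesis genes had medians of 1.70 and 2.01, and 2 of 7 and 3 of 6 of those at 10 CPM in other cells were higher. Tk1, the kinase that salvages thymidine, reached 151 against 1.45 CPM and 234 against 0.978 CPM. Rrm2, a subunit of ribonucleotide reductase, reached 47.7 against 0.230 CPM and 71.2 against 0.374 CPM. The 12 histone genes of S phase had medians of 4.57 and 4.25, and 3 of 3 and 2 of 3 at 10 CPM in other cells were higher, but most of their mRNA has no poly-A tail and is caught poorly by this chemistry.

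Genes of the mitotic apparatus, to which the rule genes belong, mostly lay below 10 CPM in other stellate cells. The 30 kinetochore and spindle checkpoint genes had medians of 5.93 and 6.13, the 32 spindle motors and mitotic kinases 7.59 and 7.75, and the 7 cytokinesis genes 7.61 and 7.62. At 10 CPM in other cells were 3, 5 and 2 of these in p16-LRTD, of which 3, 4 and 2 were higher, and 3, 4 and 2 in p16-Alb-LRTD, of which 3, 3 and 1 were. Aurkb, the kinase of the chromosomal passenger complex, stood at 118 against 0.271 CPM and 122 against 0.138 CPM. Racgap1, which directs the contractile ring, stood at 287 against 1.11 CPM and 250 against 0.932 CPM. Ube2c, the ubiquitin-conjugating enzyme of the anaphase-promoting complex, stood at 643 against 1.34 CPM and 241 against 0.283 CPM. Genes of that complex and of mitotic exit that reached 10 CPM in other cells were higher in 3 of 5 in both libraries, condensin and cohesin genes in 6 of 10 and 5 of 10, and genes that copy chromatin and DNA methylation in 13 of 15 and 16 of 16. The 23 DNA repair and replication stress genes had medians of 4.63 and 5.15, and 1 of 3 and 2 of 3 at 10 CPM in other cells were higher. Stmn1, which destabilises microtubules, was found in 166 of 166 and 14 of 15 members and ran from 2.11 over a median of 16.5 to 42.7 UMIs per 10000 in p16-LRTD and from 0 over 10.7 to 27.7 in p16-Alb-LRTD, while the median of other stellate cells was 0 in both.

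Cyclins of S phase and mitosis were higher in members, and the D-type cyclins were not. Of cyclins, CDKs and their activators at 10 CPM in other cells, 3 of 8 and 5 of 9 were higher, and the medians of all 19 were 3.47 and 3.15. Ccna2, the cyclin of S and G2 phase, stood at 203 against 0.362 CPM and 149 against 0.267 CPM. Ccnb1, the cyclin that carries Cdk1 into mitosis, stood at 212 against 0.243 CPM and 131 against 0.0306 CPM. Among the D-type cyclins, which relay growth signals in G1 phase, Ccnd1 was near its level in other cells, at 118 against 128 CPM and 170 against 131 CPM, and Ccnd2 was lower in p16-LRTD, at 154 against 372 CPM with a log2 of -1.27, and at 237 against 371 CPM in p16-Alb-LRTD, which was not called. Ccnd3 was not called in either, at 78.7 against 105 CPM and 122 against 203 CPM. The E2F, MYB and FOXM1 factors were higher in 1 of 7 and 4 of 8 of those at 10 CPM in other cells. Foxm1 stood at 76.8 against 1.03 CPM and 45.9 against 0.970 CPM. Myc, a driver of growth and ribosome synthesis, was lower in both, at 21.7 against 48.7 CPM and 6.89 against 56.8 CPM, the latter level resting on 3 UMIs in 3 members. Its log2 of -1.17 in p16-LRTD came to -0.90 within 10000 to 30000 UMIs. Ribosome biogenesis genes stayed near the background, with 0 of 17 and 2 of 16 higher and medians of 0.12 and 0.36.

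Members differed among themselves in which phase they showed. UMIs of the 43 replication genes ran from 1.59 over a median of 9.27 to 66.0 per 10000 in p16-LRTD members and from 3.58 over 39.6 to 59.7 in p16-Alb-LRTD members, with medians of 3.73 and 3.57 in other stellate cells. UMIs of the 69 kinetochore, spindle and cytokinesis genes, none of them in the rule, ran from 16.3 over 129 to 261 and from 31 over 123 to 225, with medians of 9.36 and 8.73 in other cells. The ranges of both measures overlapped between the libraries, while the balance of the summed UMIs differed. For each mitotic UMI, summed p16-LRTD members held 0.140 (0.137 to 0.143) replication UMIs and summed p16-Alb-LRTD members 0.278 (0.262 to 0.294). These intervals count UMIs and leave out the spread between cells. The replication share of both ran from 2.14% to 55.8% in single p16-LRTD members and from 2.38% to 56.7% in p16-Alb-LRTD members. The p16-Alb-LRTD ratio also moved under other filters and rules, as given in the last section. Replication UMIs outnumbered mitotic ones in 8 of 166 members, 4.82% (2.10 to 9.27), and 2 of 15, 13.3% (1.66 to 40.5), with overlapping intervals. The 8 genes of late mitosis reached 10 per 10000 UMIs in 120 of 166 members, 72.3% (64.8 to 78.9), and in 6 of 15, 40% (16.3 to 67.7).

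**Figure D2:**
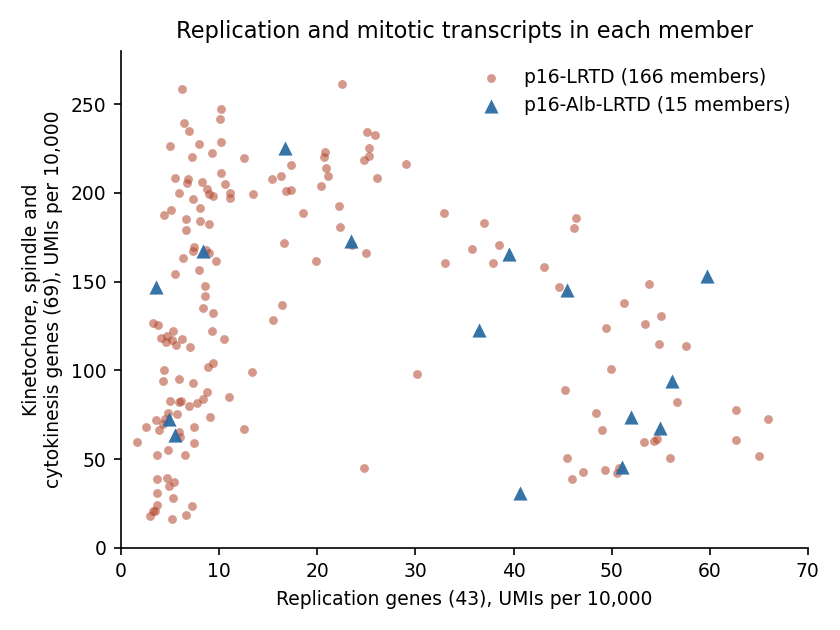
Each point is 1 member, placed by its UMIs per 10000 of 43 replication genes (x axis) and of 69 kinetochore, spindle and cytokinesis genes (y axis), with p16-LRTD as circles and p16-Alb-LRTD as triangles. Most p16-LRTD members lie in a column at low replication, and 9 of 15 p16-Alb-LRTD members lie at 30 or more against 37 of 166 p16-LRTD members.

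A limit of 30 replication UMIs per 10000, set after the values were seen, put 37 of 166 p16-LRTD members, 22.3% (16.2 to 29.4), and 9 of 15 p16-Alb-LRTD members, 60% (32.3 to 83.7), on the replicating side, together with 14 and 2 other stellate cells. In p16-LRTD the replicating members carried the G1/S cyclins, with Ccne1 at 66.2 against 2.20 CPM and Ccne2 at 97.6 against 1.92 CPM in the remaining 129. The remaining members carried the mitotic regulators, with Ccnb1 at 268 against 28.6 CPM and Cdc20, the activator of the anaphase-promoting complex, at 470 against 63.5 CPM. The same order held in p16-Alb-LRTD, where Ccnb1 stood at 22.6 CPM in 9 replicating members and 300 CPM in the other 6, and Cdc20 at 33.9 and 494 CPM. Vim, an intermediate filament protein of mesenchymal cells, was lower on the replicating side, at 1349 CPM in replicating and 2576 CPM in remaining p16-LRTD members and at 894 and 1863 CPM in p16-Alb-LRTD. Col1a1 differed little across this split, at 1957 and 2291 CPM and at 1196 and 1587 CPM.

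Several genes of CDK inhibitors, proteins that arrest the cycle, were higher in these dividing cells. Of the inhibitors and pocket proteins at 10 CPM in other cells, 3 of 7 and 4 of 7 were higher in members and 1 was lower in each, and the medians of all 10 were 1.55 and 1.59. Cdkn2a, which encodes p16 and ARF from chr4:89274471-89294653 on the minus strand of GRCm38, stood at 30.9 CPM in p16-LRTD members (147 UMIs in 89 of 166 cells) against 5.55 CPM in other stellate cells, a log2 of 2.48 (2.21 to 2.73). In p16-Alb-LRTD it stood at 29.9 CPM (13 UMIs in 8 of 15 cells) against 4.61 CPM, a log2 of 2.69 (1.78 to 3.48), which came to 1.66 when cells were thinned to 10000 UMIs. Both transcripts share their 3′ end, which is what was counted, so p16 and ARF cannot be told apart. Mice of both genotypes carried p16-CreERT2 at this locus with a Neo cassette, which the study describes as a local enhancer. After thinning, 26.1% (19.5 to 33.5) of p16-LRTD members against 4.90% (4.42 to 5.42) of other stellate cells held a Cdkn2a UMI, and 13.3% (1.66 to 40.5), 2 of 15, against 4.76% (4.26 to 5.30) in p16-Alb-LRTD. Unthinned, the shares were 53.6% against 8.44% and 53.3% against 7.74%. Barcodes rich in Kupffer genes held it, after the same thinning, in 19.9% and 20.9% and those rich in endothelial genes in 16.6% and 12.7%. Unthinned, at median depths of 20409 and 26022 and of 11677.5 and 11973 UMIs, those shares were 30.2% and 32.1% and 21.7% and 13.2%. After thinning, the intervals of both members' shares took in the share of the Kupffer-rich barcodes, and no cell type certain to lack the gene was at hand to set a background of free RNA. In p16-Alb-LRTD the interval of the members' share also took in that of the other stellate cells, so that no difference in share was detectable there at this depth.

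Cdkn2c and Cdkn2d, which encode the INK4 proteins p18 and p19, were higher in both, at 280 against 49.3 CPM and 159 against 44.4 CPM for Cdkn2c and at 156 against 25.4 CPM and 108 against 22.9 CPM for Cdkn2d. Cdkn1a, which encodes p21 and is a p53 target, was at 73.4 against 15.2 CPM and 301 against 42.4 CPM. In single members it ran from 0 over a median of 0.370 to 5.07 UMIs per 10000 in p16-LRTD and from 0 over 1.46 to 8.73 in p16-Alb-LRTD, and 1 member held 32.8% of the p16-Alb-LRTD UMIs. Its log2 in p16-Alb-LRTD was 2.83 and came to 1.48 within 10000 to 30000 UMIs. In p16-LRTD, Cdkn1a was higher in replicating than in remaining members, at 124 and 58.0 CPM. In p16-Alb-LRTD it stood at 283 and 329 CPM, a log2 of -0.22 with an interval from -0.74 to 0.31. In p16-LRTD, Cdkn2a was at 35.8 and 29.4 CPM with an interval of the log2 from -0.28 to 0.82. Cdkn1b, encoding p27, was not called in either library. Cdkn1c, encoding p57, was lower, at 6.73 against 16.7 CPM and 11.5 against 33.7 CPM, the latter on 5 UMIs and with a log2 of -0.80 after thinning. Cdkn1a was the 1 higher gene of 10 p53 targets tested in p16-LRTD and among 3 of 12 in p16-Alb-LRTD, with Eda2r and Aen, and the list medians were 0.26 and 0.53. In p16-Alb-LRTD, Eda2r and Aen came to 0.59 and 0.69 without the upper limits. Btg2, an antiproliferative p53 target, was lower in both, at 150 against 311 CPM and 119 against 504 CPM, its p16-LRTD log2 of -1.05 coming to -0.93 without the upper limits.

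**Figure D3:**
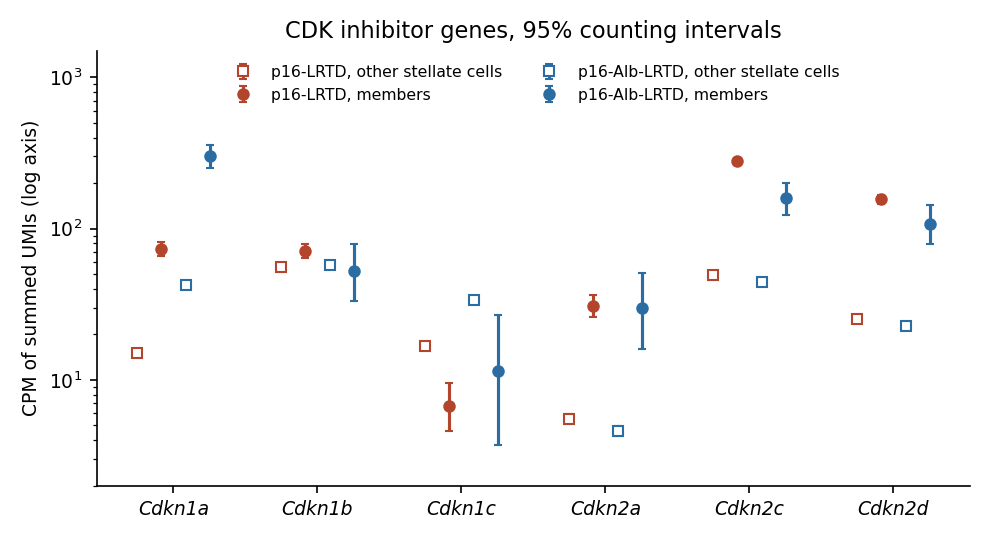
CPM of summed UMIs (log axis) of 6 CDK inhibitor genes in members (filled) and other stellate cells (open), p16-LRTD in red and p16-Alb-LRTD in blue, with exact 95% counting intervals. Cdkn1a, Cdkn2a, Cdkn2c and Cdkn2d stand higher in members of both libraries, Cdkn1b overlaps in p16-Alb-LRTD, and Cdkn1c stands lower.

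Genes of stellate identity leaned lower in members. Of 18 identity genes, 0 were higher and 5 lower in each library, with medians of -0.79 and -0.47. Colec10, a collectin of stellate cells, was lower in both, at 423 against 1075 CPM and 425 against 1004 CPM, as was Angptl6, at 282 against 817 CPM and 317 against 789 CPM, the latter a log2 of -1.32 that came to -0.95 within 10000 to 30000 UMIs. Lrat itself, part of the rule, stood at 647 against 1312 CPM and 471 against 1492 CPM, and single members ran from 0 over a median of 5.89 to 20.3 UMIs per 10000 and from 0.921 over 2.77 to 12.7, against medians of 12.8 and 14.4. Ngfr, a neurotrophin receptor of stellate cells, was lower in p16-LRTD members, at 68.8 against 175 CPM, and at 227 against 125 CPM in p16-Alb-LRTD, which was not called. Dcn was at 13506 against 18284 CPM and, called lower, at 10857 against 21782 CPM.

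**Figure D4:**
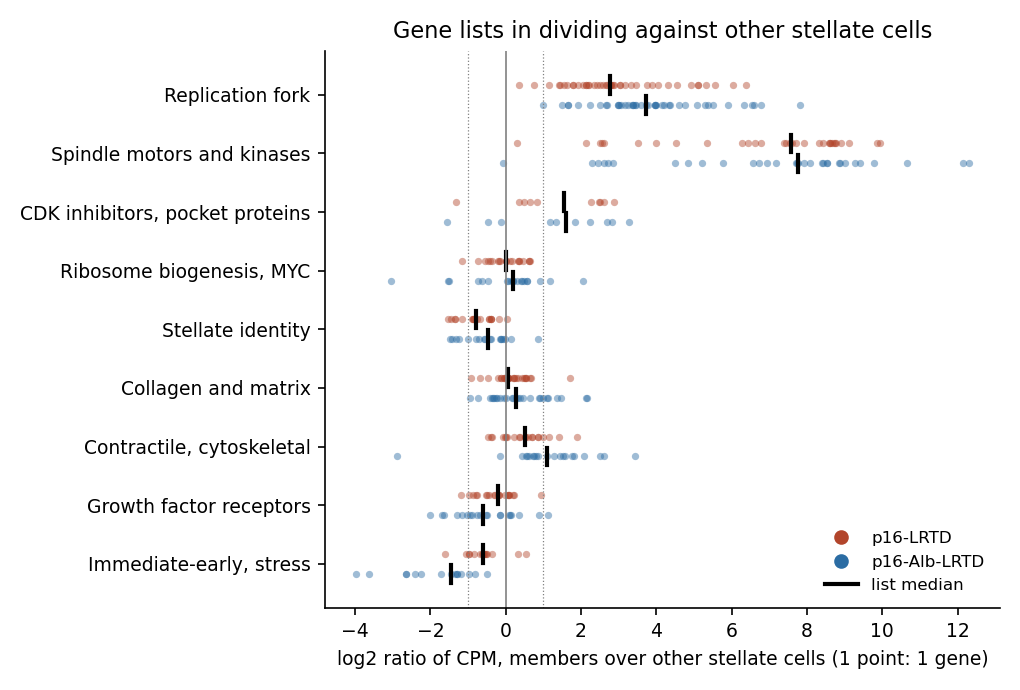
Log2 ratio of CPM, members over other stellate cells (x axis), for the genes of 9 lists (y axis) with no minimum level, 1 point per gene, with p16-LRTD in red, p16-Alb-LRTD in blue, list medians as bars and dotted lines at 2-fold. Medians are 2.78 and 3.73 for replication and 7.59 and 7.75 for spindle genes, most of which lay under 10 CPM in other cells, -0.79 and -0.47 for stellate identity, -0.60 and -1.46 for immediate-early genes, and 0.07 and 0.27 for matrix genes, which straddle 0.

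Of the matrix genes at 10 CPM in other cells, 1 of 27 was higher in p16-LRTD, against a background of 4.49%, and 5 of 26 in p16-Alb-LRTD, against 8.12%, with medians of 0.08 and 0.23, and none was lower. Col1a1, the main chain of fibrillar collagen, stood at 2213 against 1895 CPM in p16-LRTD, not called, and at 1348 against 483 CPM in p16-Alb-LRTD, a log2 of 1.48. Its level in single members ran from 0 over a median of 15.3 to 124 UMIs per 10000 in p16-LRTD and from 0 over 11.7 to 34.8 in p16-Alb-LRTD. Of other stellate cells, 2094 of 7926 and 690 of 6822 reached those medians, so members overlapped the collagen-rich cells of each library. Col3a1 was at 5769 against 3935 CPM and 2467 against 1302 CPM, not called in either. Timp1, an inhibitor of matrix proteases, was higher in both, at 164 against 50.3 CPM and 48.2 against 18.7 CPM, the latter a log2 of 1.37 that came to 0.89 without barcodes bearing other types' markers. Lox and Loxl1, which crosslink collagen, were higher in p16-Alb-LRTD members with log2 values of 2.16 and 2.15 and were not called in p16-LRTD, a difference between libraries that was not tested.

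Contractile and cytoskeletal genes were higher in 4 of 21 and 11 of 20, with medians of 0.51 and 1.19 and none lower. Vim at 2288 against 1037 CPM and 1273 against 524 CPM and Lgals1, a lectin of mesenchymal cells, at 2026 against 546 CPM and 1574 against 278 CPM were higher in both libraries. Tpm2, a tropomyosin, was also higher in both, at 271 against 102 CPM and 496 against 81.5 CPM. Tagln, an actin-binding protein of smooth muscle and myofibroblasts, parted the libraries. In p16-LRTD members it ran from 0 over a median of 1.68 to 69.1 UMIs per 10000 against a median of 3.21 in other cells, and in p16-Alb-LRTD members from 1.22 over 6.06 to 44.1 against 1.59. Acta2, smooth muscle actin, stood at 63.5 against 44.3 CPM and 129 against 12 CPM, but 1 member held 30.8% of its p16-LRTD UMIs, and its 56 UMIs in p16-Alb-LRTD came from 4 of 15 members, 46.4% from 1. In p16-LRTD its log2 of 0.52, not called, came to 1.62 without the upper limits and 1.38 with a stellate limit of 10 per 10000, both past the call. Summed smooth muscle markers were at 205 against 266 CPM and 393 against 146 CPM, and their part in these results was not tested.

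Of 20 receptors of growth factors and cytokines, 0 and 1 were higher, and 1 and 6 were lower against backgrounds of 3.93% and 6.78%. S1pr3, a sphingosine-1-phosphate receptor, was lower in both libraries. Pdgfrb, the PDGF receptor of stellate cells, was at 206 against 378 CPM and 204 against 228 CPM and was not called. Lifr, the receptor of leukaemia inhibitory factor and cardiotrophin, was at 292 against 572 CPM and 246 against 474 CPM, log2 values of -0.97 and -0.95 just short of the call. Its partner Il6st was at 315 against 539 CPM and 310 against 529 CPM. Of 16 ligands, 1 and 2 were higher and 4 and 3 lower, with medians of -0.41 and 0.01. Cxcl12, a chemokine that stellate cells make in quantity, was lower in both, at 1446 against 3029 CPM and 1649 against 3464 CPM, log2 values of -1.07 in each that came to -0.99 within 10000 to 30000 UMIs in p16-LRTD and without barcodes bearing other types' markers in p16-Alb-LRTD.

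Genes of immediate-early response, which tissue digestion is known to induce, were lower in 2 of 14 and 12 of 15, with medians of -0.61 and -1.46. Egr1 ran from 0 over a median of 2.76 to 24.0 UMIs per 10000 in p16-LRTD members and from 0 over 0 to 8.85 in p16-Alb-LRTD members, against medians of 3.82 and 7.78 in other cells. Glucocorticoid response genes were lower in 2 of 11 and 6 of 11, Sgk1 and Cebpd in both libraries. Interferon response genes were higher in 0 of 14 in both and lower in 0 and 1.

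Markers that set apart some groups of stellate cells, taken from an earlier clustering of these same data, differed in direction between groups and libraries. Alcam and Svep1, markers of a collagen-high group, were lower in members of both libraries, Alcam at 127 against 356 CPM and 41.4 against 311 CPM. Svep1, with 1 UMI in p16-Alb-LRTD members, came to -0.87 and -0.93 with barcodes over the upper limits admitted. Of Galnt14, Hhip and Cdh18, 2 of 3 and 3 of 3 were lower, and of Grid1, Inmt and Sdk2, 1 of 3 and 3 of 3. Of Tgfbi, Fcna and G0s2, 0 and 1 were lower. Notch3 and Clstn2, markers of a pericyte-like group, were both lower in p16-LRTD members and both higher in p16-Alb-LRTD members, with medians of -2.17 and 1.54, but Clstn2 in p16-Alb-LRTD came to -0.53 without barcodes bearing other types' markers.

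Outside the division lists, the genes with the highest ratios in both libraries included further proteins of the dividing cell. Pbk, a mitotic kinase, stood at 140 against 0.125 CPM and 142 against 0.0382 CPM, and Melk, a kinase of dividing cells, at 79.1 against 0.139 CPM and 82.7 against 0.0458 CPM. Dlgap5, a spindle protein, Cdca2, which brings protein phosphatase 1 to chromosomes, and Neil3, a glycosylase that repairs replication forks, were among the 12 named by rule, with Pimreg, Depdc1a, Mxd3, Cdkn3, Shcbp1, Ube2t and Prr11. Mxd3, a MAX-binding repressor of the MYC network, stood at 129 against 0.202 CPM and 89.6 against 0.168 CPM. The genes with the lowest ratios in both libraries were of mixed kinds. The antisense RNA 9530026P05Rik stood at 106 against 611 CPM and 25.3 against 867 CPM, and Pcdh9, a protocadherin, at 37.0 against 169 CPM and 9.19 against 238 CPM. Slfn5 stood at 16.4 against 170 CPM and 45.9 against 229 CPM, Hhip, the decoy receptor of hedgehog ligands, at 32.6 against 117 CPM and 18.4 against 146 CPM, and Npr3, the clearance receptor of natriuretic peptides, at 26.5 against 90.4 CPM and 32.2 against 211 CPM. Plxna4, 1200007C13Rik, Park2, Hotairm1 and Psen2 completed the 10. In p16-Alb-LRTD members each of these 10 rested on 4 to 20 UMIs. Pcdh9 and Slfn5 were seen there in 2 members each, 1 of which held 75% and 70% of the UMIs.

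Between the genotypes, ratios below are a log2 of p16-Alb-LRTD over p16-LRTD members, 15 cells against 166. Of 8898 genes, 344 were higher, a background of 3.87%, and 293 lower, 3.29%, with a median of 0.03. Replication fork genes were higher in 13 of 41 and lower in 0, with a median of 0.80, while spindle genes were higher in 0 of 32 and lower in 1, with a median of -0.16, and kinetochore genes in 0 of 30 with a median of 0.02. Pcna was higher with a log2 of 1.23 (0.95 to 1.5), which came to 0.62 with cells thinned to 10000 UMIs, and Tyms, the synthase of thymidylate, with 1.17 (0.85 to 1.48), which came to 0.50 without the upper limits and 0.68 within 10000 to 30000 UMIs. Hells, a chromatin remodeller of S phase, at 1.44, Uhrf1, which carries DNA methylation onto the new strand, at 1.09, and Brca1, a DNA repair gene, at 1.02, were higher as well, and all 3 calls ended without the upper limits, at 0.86, 0.45 and 0.04. Ube2c was lower with -1.42 and Plk1, a master kinase of mitosis, with -1.14, and Cdc25b, the phosphatase that activates Cdk1, was lower with -1.55. Within 10000 to 30000 UMIs Cdc25b came to -0.54, and without barcodes bearing other types' markers Plk1 came to -0.89. With barcodes over the upper limits admitted, the replication list median was 0.35 and Ube2c stood at -0.61.

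For collagen genes the same contrast among other stellate cells stands beside each value of the members. Col1a2 differed by -1.07 in members and -1.21 in other cells, and Col3a1 by -1.23 and -1.60. Both calls in members ended without the upper limits, at -0.65 and -0.92, and with cells thinned to 10000 UMIs, at -0.86 and -0.84. Col1a1 differed by -0.71 in members, not called, and by -1.97 in other cells, and none of these differences of differences was tested. Over the matrix list 5 of 27 were lower in members and 7 of 27 in other cells, with medians of -0.54 and -0.45. The background in other cells was 48 of 8702 genes lower, 0.552%, and 75 higher, 0.862%. Postn and Lum, matrix proteins of activated fibroblasts, were lower by -1.45 and -1.43 in members. Without the upper limits the members' matrix median was -0.21. Timp1, lower at -1.76, then stood at 0.57.

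**Figure D5:**
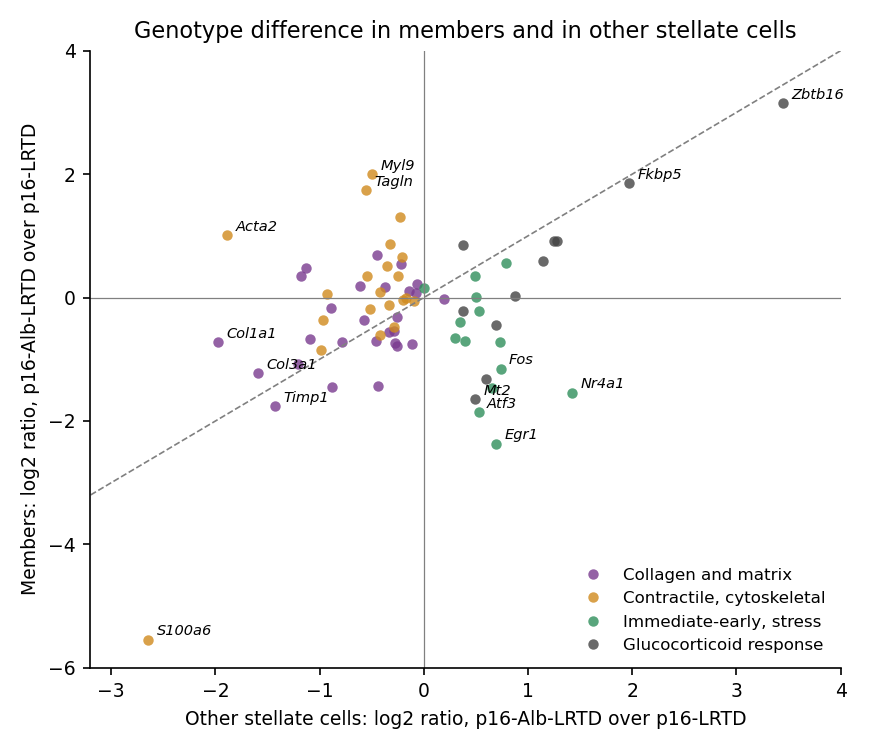
Log2 ratio of p16-Alb-LRTD over p16-LRTD in other stellate cells (x axis) and in members (y axis), 1 point per gene of 4 lists, the dashed line marking equal ratios. Zbtb16 and Fkbp5 lie near the line with members at 3.15 and 1.86, Tagln and Myl9 lie above it and Egr1 and Fos below, and the last 4 shrank with barcodes over the upper limits admitted.

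Some contractile genes had genotype ratios of opposite sign in members and in other cells. Of 21 contractile and cytoskeletal genes, 4 were higher in members, 1 was lower and 16 were not called. In members 12 of 21 lay above 0, with a median of 0.06. In other cells 0 were higher and 2 lower, with a median of -0.42. Tagln was higher in p16-Alb-LRTD members at 1.74 (1.61 to 1.87) and lay at -0.55 in other cells, and Myl9, the light chain of myosin, at 2.0 and -0.49. Myh11, smooth muscle myosin, was higher at 1.78 with UMIs in 14 of 15 members. With barcodes over the upper limits admitted these values were 0.53 for Tagln, 1.10 for Myl9 and 0.74 for Myh11, and Acta2 turned from 1.02 to -1.25. Immediate-early genes were lower in 5 of 14 with a median of -0.68, against 0.53 in other cells, with Egr1 at -2.37 and Fos at -1.15. Admitting the same barcodes brought that median to -0.17, Egr1 to -0.58 and Fos to -0.52. Cdkn1a was higher at 2.04 in members and at 1.48 in other cells, and came to 1.10 in members of 10000 to 30000 UMIs, while Cdkn2a stood at -0.05 (-0.99 to 0.77).

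The glucocorticoid targets Zbtb16 and Fkbp5 had like genotype ratios in members and in other cells. Zbtb16, a transcription factor induced by glucocorticoids, stood at 54.3 CPM in p16-LRTD members and 480 CPM in p16-Alb-LRTD members, a log2 of 3.15, with 3.45 in other cells, and was detected in 15 of 15 p16-Alb-LRTD members. Fkbp5, an inhibitory chaperone of the glucocorticoid receptor, differed by 1.86 and 1.97. They were the 2 of 11 genes of that list that were higher in members, and the metallothioneins Mt1 and Mt2 were lower, at -1.32 and -1.64, and came to -0.44 and -0.40 with barcodes over the upper limits admitted. Of 14 interferon response genes, Oasl2 at 1.0 and Cxcl10 at 1.21 were higher and Ifi27 at -1.34 was lower in members, while 8 were higher in other cells. Oasl2 came to 0.79 and Ifi27 to -0.68 without the upper limits, and Cxcl10 to 0.95 with a mitochondrial limit of 10%.

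Of the genes of at least 50 CPM, the 10 most raised in p16-Alb-LRTD members after Zbtb16 included Ogn, the proteoglycan osteoglycin, at 3.02, Cacna1c, a calcium channel subunit, at 2.74, Ly6a at 2.5, Lama2, a laminin chain, at 2.39, and Ctgf, a matricellular growth factor, at 2.29, 1 member holding 35.2% of the Ctgf UMIs. Hecw2, Slc45a3, Clstn2 and Adarb1 completed them. The same contrast in other stellate cells was 2.40 for Ly6a and 1.09 for Ctgf, both called higher. It was 0.62 for Ogn, 0.05 for Cacna1c and 0.02 for Lama2, not called. Hecw2, Slc45a3 and Adarb1 were not called there, and Clstn2 was lower at -1.54. With barcodes over the upper limits admitted, Cacna1c came to 1.41, Ogn to 2.01, Lama2 to 1.59 and Hecw2 to 0.91. Ogn came to 0.73 with cells thinned to 10000 UMIs, and Ly6a to 0.96 within 10000 to 30000 UMIs. Among the 10 most lowered, S100a6, a calcium-binding protein, was at 107 CPM in p16-LRTD members and rested on 1 UMI in p16-Alb-LRTD members, a log2 of -5.54 that became 2.81 without the upper limits. S100a6 was called lower in other stellate cells too, at -2.65. Nkain2 stood at 608 and 80.4 CPM, and Tmtc2, Ano1, Sdk2, Ereg and Abca1 ranged from -3.68 to -2.81, each on 2 to 4 UMIs in p16-Alb-LRTD members. With barcodes over the upper limits admitted, Tmtc2 came to -0.10, Abca1 to -0.54, Ereg to -1.0, Nkain2 to -1.07, Ano1 to -1.71 and Sdk2 to -1.96. None of these genes was called between genotypes in other stellate cells. The macrophage genes Cd5l, Cd74 and H2-Aa completed the list, and single p16-LRTD barcodes held 56.9%, 93.9% and 96.1% of their UMIs. The direction of Cd5l turned without the upper limits, to 1.93, and that of Cd74 within 10000 to 30000 UMIs, to 1.55, and without barcodes bearing other types' markers, to 3.21.

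In 7 genes members were lower than other stellate cells in p16-LRTD and higher in p16-Alb-LRTD, each past 2-fold, and in 0 the reverse. They were Tgfb2, Gpm6b, Mest, Clstn2, Myh11, Notch3 and Rftn1. Over all genes, 355 of 9044 were lower in p16-LRTD members, 3.93%, and 1113 of 8909 higher in p16-Alb-LRTD members, 12.5%. In other stellate cells all 7 stood lower in p16-Alb-LRTD than in p16-LRTD, at -0.21 to -1.66. Both groups thus enter the change of direction. Notch3, a receptor of pericytes, stood at 12.2 against 41.7 CPM and 50.5 against 13.2 CPM, and its UMIs came from 34 of 166 and 10 of 15 members. The imprinted gene Mest stood at 41.2 against 154 CPM and 129 against 51.9 CPM, and its genotype difference in members came to 0.65 without barcodes bearing other cell types' markers and 0.40 without the upper limits. Clstn2, with UMIs in 5 of 15 p16-Alb-LRTD members, came to 0.69 without those barcodes. Against the other stellate cells of p16-Alb-LRTD, leaving out those barcodes brought Clstn2 from 1.15 to -0.53, Mest from 1.31 to 0.34, Gpm6b from 1.29 to 0.27 and Tgfb2 from 1.17 to 0.88, and admitting barcodes over the upper limits brought Myh11 from 1.31 to 0.62 and Rftn1 from 1.01 to 0.94. By the rule for named genes, Clstn2, Mest, Acta2, Myh11 and Cacna1c had genotype ratios in members farthest above those in other stellate cells, beside Pimreg, whose ratio in other cells rests on 1 UMI in p16-Alb-LRTD and is not read. Inmt, Ano1, Tmtc2, Abca1, Egr1 and Nr4a1 had those farthest below. Inmt rested on 1 UMI in p16-Alb-LRTD members, and Nr4a1 turned to 0.54 with barcodes over the upper limits admitted.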

How the data were processed

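UMI counts per gene and barcode were deposited by the authors, made from 10x Genomics 3′ v3.1 libraries with Cell Ranger 7.0.1 against mm10, and both stored matrices were used as raw counts over 31054 features. Counting is of 3′ ends, so isoforms and near-identical copies are not resolved, and 36 symbols listed more than once were not summed. Barcodes were filtered and members found as in the opening, doublets were addressed by the upper limits alone, and UMIs were summed per group. Shares have Clopper-Pearson, levels exact Poisson and ratios exact conditional 95% intervals (scipy 1.17.1, numpy 2.4.6, pandas 2.3.3, Python 3.11.15), for counting error only. A group at 0 was set to a floor of 3 counts. No test was possible with 1 library per genotype. Members and lists (41 lists, 537 genes) were chosen with earlier results of these data known. Named genes are the 12 and 10 most raised and lowered in both libraries outside the division lists (at least 50 CPM), the 10 largest and smallest genotype ratios (at least 50 CPM), the 6 farthest above and below their ratio in other stellate cells (at least 100 CPM), and the leading genes of each list. Gates for other types needed 15 marker UMIs per 10000. edgeR 4.0.16 in R 4.3.3 gave TMM factors for an alternative scaling. Scripts were tested on simulated data. Loci are from GENCODE vM21 and promoters from RefSeq.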

Additional observations from a re-analysis of the deposited data

Results flagged for a closer look

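In 7 genes, of 9044 and 8909 tested, the members moved in opposite directions in the 2 libraries relative to the other stellate cells. That difference between libraries was not tested, and all 7 stood lower in the other stellate cells of p16-Alb-LRTD than of p16-LRTD. Against the other stellate cells of p16-Alb-LRTD, Clstn2 turned to -0.53 and Mest, Gpm6b and Tgfb2 came to 0.34, 0.27 and 0.88 without barcodes bearing other types' markers, and Myh11 and Rftn1 came to 0.62 and 0.94 without the upper limits, all short of the 2-fold call, while Notch3 came to 1.16 without those barcodes. Of barcodes that passed the stellate limit but exceeded 7000 genes or 50000 UMIs, 28.5% in p16-LRTD and 4.2% in p16-Alb-LRTD met the division rule. Of the stellate cells kept, 2.05% and 0.219% did. The rule asks for 8 UMIs at any depth, and the barcodes set aside were deeper, at medians of 46191 and 48584 against 17204.5 and 18321 UMIs. The shares are thus compared at unequal depth. The transcript of tdTomato, the reporter that Dre and Cre together release, reached 16.1 CPM (6.47 to 33.1) in p16-Alb-LRTD members, from 7 UMIs in 5 of 15 cells. It stood at 5.76 CPM in other stellate cells of that library and at 2.52 and 3.1 CPM in members and others of p16-LRTD, which has no Dre.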

How the results depend on the processing

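Member shares, their fold, Cdkn2a, the replication to mitosis ratio and gene counts between genotypes were recomputed under other filters, member rules and depth ranges. So were medians of the replication, stellate identity, matrix, contractile and immediate-early lists and the values of named genes. TMM and median-of-ratios scaling were applied to genotype ratios alone. The other lists, ranges over single members, counts of members by phase and markers of other cell types were not recomputed. Of 359 recomputed summary values 324 stayed within their counting interval or within 1.5 times the count and 35 moved. Without the upper limits on genes and UMIs, members were 3.14% of p16-LRTD stellate cells. List medians of members over other cells were then 0.25 for matrix genes in p16-LRTD, and 3.06 for replication, -0.79 for stellate identity and 0.63 for matrix genes in p16-Alb-LRTD. The genotype medians in members were -0.21 for matrix and -0.17 for immediate-early genes, the p16-Alb-LRTD replication to mitosis ratio was 0.230, and the genotype ratios of S100a6 (2.81), Cd5l (1.93), Acta2 (-1.25), Nr4a1 (0.54) and Timp1 (0.57) turned. With 6 other mitotic genes as the rule, p16-LRTD members were 1.58%, its replication median was 2.35 and its contractile median 0.33, and the replication to mitosis ratios were 0.110 and 0.244. Restricted to 10000 to 30000 UMIs, p16-LRTD members were 1.31%, stellate identity was -0.64 and immediate-early genes -0.75 there, the ratios were 0.169 and 0.254, and Cd74 turned to 1.55. Thinned to 10000 UMIs, the p16-LRTD matrix median was 0.22, its contractile median 0.57 and its ratio 0.133, and in p16-Alb-LRTD immediate-early genes were at -1.90 and Cdkn2a at 1.66, with 166 genes lower between genotypes. As a mean of per-cell CPM, p16-LRTD stellate identity was -0.88 and matrix 0.20. Over genes at 10 CPM in other stellate cells, the replication medians, otherwise over all genes of the list, were 1.63 and 2.37, and over genes at 10 CPM on average 2.69 and 3.73. With a minimum of 50 CPM on average, the p16-LRTD median was 1.63 and 97 genes were higher and 69 lower between genotypes. The ratio was 0.125 in p16-LRTD with 5 genes and 12 UMIs, and in p16-Alb-LRTD 0.257 with a stellate limit of 25, 0.309 with 3 genes and 5 UMIs, and 0.250 without barcodes bearing other types' markers, a step that turned Cd74 to 3.21 and Clstn2 in p16-Alb-LRTD members over other cells to -0.53. Where a value moved, the cause was not tested. Of 4375 recomputed values of single genes, 3802 stayed, 565 moved and 8 turned. Both 10 CPM choices for the replication medians and the leaving out of barcodes present in both libraries were made after seeing the data, and the latter moved none of these values. TMM scaling shifted every genotype ratio by -0.07 and median-of-ratios scaling by -0.06. No paired analysis was possible because there was a single library for either genotype, and no replicate could be left out. The 15 p16-Alb-LRTD members, with 435308 UMIs in all, limit the precision of each genotype contrast.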
